A study of Homo sapiens with 12 samples.

Results

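The sirtuins are a family of 7 deacylases, SIRT1 to SIRT7, and all 7 genes were present in the deposited table of 16389 genes measured by RNA-seq in HepG2 cells. The members were taken by gene symbol, and the family was chosen with earlier results of these data known. HepG2 is a human liver cancer cell line. The cells were cultured in triplicate for 48 h in normoglycaemic medium with 5.5 mM glucose (LG) or hyperglycaemic medium with 20 mM glucose (HG), and the treated groups then received 1 mM valproic acid (VPA), an inhibitor of class I and IIa histone deacetylases, for 12 h (LGV and HGV). The labels name no osmotic control for the added glucose, and the sources used here do not say whether the untreated cells were harvested before or after those 12 h, so glucose cannot be told apart from osmolality, nor VPA from culture time.

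Sirtuins remove acetyl and other acyl groups from lysines of histones and of other proteins, and consume NAD+ in doing so. Their activity thereby follows the supply of NAD+ and they are often described as sensors of nutrient state. SIRT1, SIRT6 and SIRT7 are mainly nuclear, SIRT2 is mainly cytosolic, and SIRT3, SIRT4 and SIRT5 are mitochondrial. In liver they act on gluconeogenesis, lipid oxidation, ketogenesis and the urea cycle. The zinc-dependent deacetylases that VPA inhibits belong to other classes, with a different catalytic mechanism, so the sirtuins are not counted among the direct targets of VPA.

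The gene counts of a library summed to between 29798442 and 45572694 reads, and the sirtuins took from 84 reads (SIRT4 in LG) to 3350 reads (SIRT2 in HGV) in a single library. All 10 hepatocyte markers examined were present, with medians over the 12 libraries from 153 CPM (counts scaled to a common library size) for TTR to 24000 CPM for ALB. Of 11 markers of other cell types, 6 were not among the genes of the table, and COL1A1 and VWF stayed at or below 3.85 CPM. ACTA2 had a median of 19.5 CPM, and LYZ and KRT19 were high with medians of 1300 and 110 CPM. Summed hepatocyte markers were lowest in LGV (40600 to 41500 CPM) and reached 47300 to 62000 CPM in the other groups. Summed markers of other cells, mostly LYZ, were highest in HGV (1620 to 1740 CPM) against 1040 to 1530 CPM elsewhere. The part of either sum in the sirtuin differences was not tested. In bulk RNA, a change in transcript per cell cannot be told apart from a change in the mix of cells. Whether the triplicates were separate cultures is not stated, so the p-values measure the spread between these libraries, which may be technical.

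On the GRCh37 build, SIRT1 (ENSG00000096717) lies on chromosome 10 from 69644414 to 69678147, SIRT2 (ENSG00000068903) on chromosome 19 from 39369195 to 39390502 and SIRT3 (ENSG00000142082) on chromosome 11 from 215030 to 236931. SIRT4 (ENSG00000089163) lies on chromosome 12 from 120740119 to 120751052 and SIRT5 (ENSG00000124523) on chromosome 6 from 13574459 to 13615390. SIRT6 (ENSG00000077463) lies on chromosome 19 from 4174106 to 4182563 and SIRT7 (ENSG00000187531) on chromosome 17 from 79869815 to 79879199. The exons of SIRT7 share 105 bases with those of MAFG on the same strand, where reads of the genes cannot be separated. SIRT2 shares 40 exonic bases with NFKBIB, SIRT3 shares 84 with RIC8A and SIRT5 shares 1058 with an antisense RNA, all on the opposite strand. The library kit keeps the strand, but whether the counting used it is not given in the sources used here. SIRT3 starts 35 bases from PSMD13 and SIRT6 starts 123 bases from ANKRD24, each gene pair running in opposite directions.

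Levels were compared between genes as TMM-scaled CPM per kilobase of the canonical transcript (TMM is edgeR's scaling between libraries). In LG the order of these levels was SIRT7 with 22.0 ± 2.84, SIRT2 with 20.6 ± 3.28, SIRT1 with 11.1 ± 2.21, SIRT6 with 10.2 ± 1.70, SIRT5 with 4.77 ± 1.05, SIRT3 with 4.70 ± 1.05 and SIRT4 with 2.36 ± 0.304 CPM per kb (SD, n = 3). The libraries overlapped between SIRT7 and SIRT2, between SIRT1 and SIRT6 and between SIRT5 and SIRT3, so these neighbours were not ordered beyond their spread. In HG the order was SIRT7, SIRT2, SIRT6, SIRT1, SIRT5, SIRT3 and SIRT4, from 15.7 ± 1.19 to 3.38 ± 0.136 CPM per kb, and the 4 from SIRT6 to SIRT3 overlapped with their neighbours. With VPA, SIRT2 stood first in both media, with 42.7 ± 3.89 CPM per kb in LGV and 38.0 ± 4.16 in HGV, apart from SIRT7 with 24.7 ± 2.78 and 21.3 ± 0.865. SIRT1 moved from the third place in LG to the last in HGV, with 4.77 ± 0.390 CPM per kb, where it overlapped with SIRT5. The order rests on the length used. Per kilobase of all annotated exons together, SIRT1 stood first in LG and HG and the fifth in HGV, above SIRT3 and SIRT5, and SIRT2 still stood first in LGV and HGV.

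**Figure D1:**
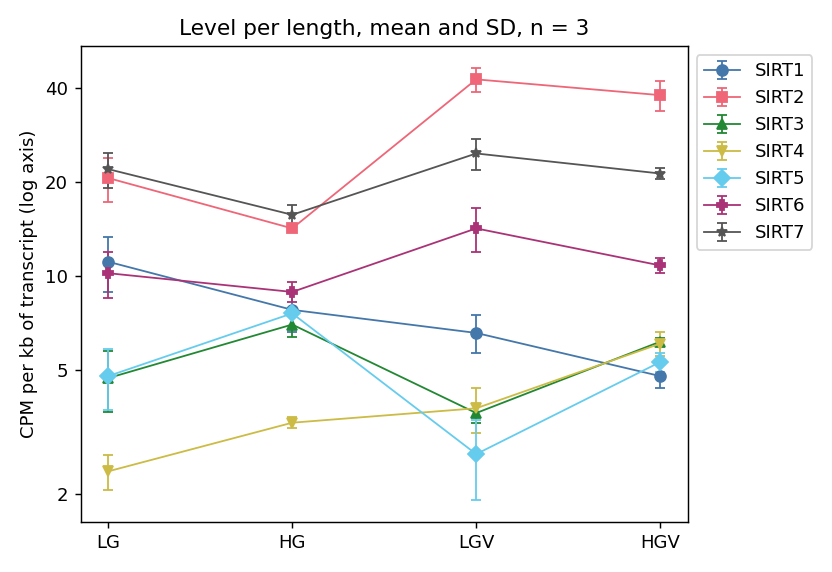
Mean level of each sirtuin in CPM per kilobase of the canonical transcript (log axis) in the 4 groups, with SD bars over 3 libraries and lines that only guide the eye. SIRT2 was highest in LGV and HGV, and SIRT1 had 11.1 CPM per kb in LG and 4.77 in HGV, where its rank depends on the length used.

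VPA raised the transcripts of SIRT2 and SIRT4 and lowered those of SIRT1 and SIRT5 in normoglycaemic and in hyperglycaemic medium. SIRT6 rose in LG medium and SIRT7 in HG medium, and SIRT3 did not pass the threshold in either. Thus 5 of 7 sirtuins were called between LGV and LG, 3 higher and 2 lower, where 41.6% of the 15944 tested genes were called (21.7% higher and 19.9% lower). Between HGV and HG, 5 of 7 were also called, 3 higher and 2 lower, where 46.1% of 16188 genes were called (25.8% higher and 20.2% lower). Without LGV replicate 2, 3 sirtuins were called between LGV and LG. A gene was called at a false discovery rate (FDR) of 0.05 or less in edgeR's quasi-likelihood test, adjusted over all tested genes. The median absolute log2 fold change of the sirtuins was 0.69 in LG medium and 0.52 in HG medium, and 0.39 for all tested genes in each. With library size only in place of TMM factors, the median of all genes shifted from -0.01 to 0.16 and from 0.02 to 0.15, and the higher genes made up 69.7% and 68.1% of the calls in place of 52.1% and 56.1%.

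SIRT2, the mainly cytosolic tubulin and histone deacetylase, showed the largest difference of the family. Its levels were 43.0, 40.8 and 31.5 CPM in LG and 71.1, 83.1 and 84.1 CPM in LGV. In HG they were 26.4, 26.1 and 26.5 CPM, and in HGV 66.3, 79.7 and 66.1 CPM. Every treated library lay above every untreated library, with a gap from 43.0 to 66.1 CPM. SIRT2 was 2.09-fold higher with VPA in LG medium (log2 fold change 1.06, standard error 0.13, FDR 1.97e-05) and 2.68-fold higher in HG medium (1.42, standard error 0.11, FDR 7.03e-07). NFKBIB, the inhibitor of NF-kB whose start lies 162 bases from that of SIRT2 on the opposite strand, had log2 fold changes of 0.14 (FDR 0.479) and 0.38 (FDR 0.0203).

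SIRT1, the nuclear deacetylase that acts on PGC-1alpha and FOXO proteins, fell. It had 42.6, 56.0 and 38.7 CPM in LG and 22.6, 29.3 and 28.9 CPM in LGV. In HG it had 36.9, 27.2 and 31.7 CPM, and in HGV 21.1, 17.9 and 19.8 CPM. Within each medium the treated libraries lay below the untreated ones, and LG replicate 2 stood highest of the 12 libraries. The log2 fold change was -0.75 in LG medium (standard error 0.15, FDR 0.00119) and -0.71 in HG medium (standard error 0.13, FDR 0.000882), which is 1.69-fold and 1.63-fold lower.

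SIRT6, a nuclear deacylase tied to telomeres and to the repression of glycolytic genes, had 19.3, 15.9 and 13.9 CPM in LG and 18.6, 23.8 and 25.6 CPM in LGV. LG replicate 1 lay above LGV replicate 1, so these groups overlapped. The log2 fold change was 0.49 (standard error 0.16, FDR 0.0252), and the FDR rose to 0.0701 without LG replicate 3, 0.0829 without LGV replicate 2 and 0.130 without LGV replicate 3. It had 13.0, 14.8 and 14.8 CPM in HG and 16.4, 18.2 and 17.0 CPM in HGV, which did not overlap. The log2 fold change there was 0.27 (standard error 0.12, FDR 0.0805, or 0.0160 with library size only). ANKRD24, which starts beside SIRT6 in the other direction, rose by 1.79 (FDR 0.0120) and 2.04 (FDR 2.93e-05), from means of 0.334 and 0.750 CPM.

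SIRT7, a nucleolar deacylase that acts on ribosomal DNA transcription, had 24.7, 28.5 and 28.0 CPM in HG and 36.8, 38.1 and 35.1 CPM in HGV. These libraries did not overlap, and the log2 fold change was 0.44 (standard error 0.11, FDR 0.00536). In LG it had 39.3, 41.9 and 32.4 CPM and in LGV 37.4, 43.6 and 46.8 CPM, which overlapped. Here the log2 fold change was 0.18 (standard error 0.13, FDR 0.298, or 0.0377 with library size only). MAFG, which shares part of its exons with SIRT7, had log2 fold changes of -0.06 (FDR 0.824) and -0.08 (FDR 0.585) with VPA.

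Among the mitochondrial sirtuins, SIRT5, which removes succinyl, malonyl and glutaryl groups, had 21.4, 17.2 and 26.8 CPM in LG and 16.3, 10.2 and 10.2 CPM in LGV. It had 34.7, 33.8 and 35.2 CPM in HG and 22.4, 24.3 and 25.8 CPM in HGV. The treated libraries lay below the untreated ones within each medium, and LGV replicate 1 stood above the other two of its group. The log2 fold change was -0.82 in LG medium (standard error 0.21, FDR 0.00542, or 0.0559 with library size only) and -0.52 in HG medium (standard error 0.11, FDR 0.00162). The antisense RNA (ENSG00000261071) that overlaps SIRT5 exons also fell in LG medium, from a mean of 1.12 to 0.545 CPM (log2 fold change -1.01, FDR 0.0204). In HG medium its log2 fold change was -0.3 (FDR 0.345).

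SIRT4, an inhibitor of glutamate dehydrogenase and the member with the fewest reads, had 3.14, 2.45 and 3.01 CPM in LG and 4.29, 5.42 and 4.0 CPM in LGV. It had 3.93, 4.25 and 4.17 CPM in HG and 7.76, 7.75 and 6.62 CPM in HGV. The groups did not overlap in either medium. SIRT4 rose by 0.69 on the log2 scale in LG medium (standard error 0.22, FDR 0.0199) and by 0.84 in HG medium (standard error 0.15, FDR 0.000599). In LG medium the FDR was 0.0555 without LG replicate 2 and 0.109 without LGV replicate 2.

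SIRT3, the main deacetylase of the mitochondrial matrix, had 14.4, 10.2 and 16.0 CPM in LG and 10.4, 9.78 and 11.2 CPM in LGV. It had 18.0, 20.8 and 21.5 CPM in HG and 17.7, 18.3 and 17.2 CPM in HGV. The groups overlapped in each medium, with log2 fold changes of -0.36 (95% interval -0.75 to 0.03, FDR 0.130) and -0.18 (95% interval -0.44 to 0.07, FDR 0.227). Without LG replicate 2, the lowest LG library, the difference in LG medium was -0.53 with an FDR of 0.0125. PSMD13, a proteasome subunit gene that starts 35 bases away in the other direction, had log2 fold changes of 0.13 (FDR 0.358) and 0.38 (FDR 0.0134).

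**Figure D2:**
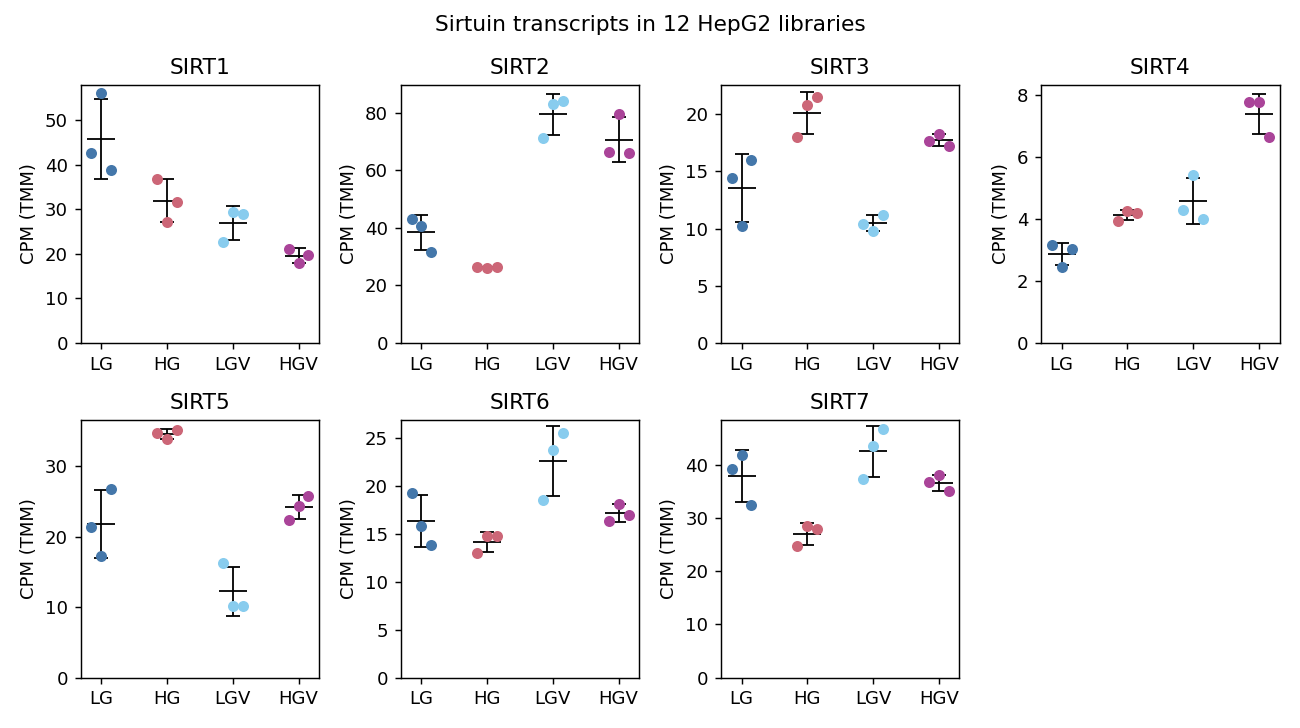
TMM-scaled CPM of each sirtuin in the 12 libraries, with points for libraries and black bars for the mean and SD of 3. SIRT2 in the VPA groups reached 66.1 CPM or more while no untreated library passed 43.0 CPM, and the HG libraries of SIRT3 and SIRT5 lay above those of LG.

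In untreated cells, SIRT3 and SIRT5 rose in HG against LG while SIRT1, SIRT2 and SIRT7 fell, and mitochondrial SIRT4 and nuclear SIRT6 did not pass the threshold. These 5 of 7 calls, 2 higher and 3 lower, stand beside 24.7% of the 15452 tested genes called in this comparison (12.0% higher and 12.7% lower). The log2 fold change was 0.60 for SIRT3 (standard error 0.18, FDR 0.0186), 0.69 for SIRT5 (standard error 0.16, FDR 0.00427) and 0.55 for SIRT4 (standard error 0.21, FDR 0.0630). It was -0.50 for SIRT1 (standard error 0.16, FDR 0.0254), -0.52 for SIRT2 (standard error 0.14, FDR 0.0139), -0.46 for SIRT7 (standard error 0.14, FDR 0.0262) and -0.17 for SIRT6 (95% interval -0.52 to 0.17, FDR 0.461). The HG and LG libraries of SIRT6 overlapped. The 3 HG libraries of SIRT2 and SIRT5 lay close together while those of LG were spread.

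Leaving out single libraries ended several of these calls, mostly with folds of similar size, and the cause was not tested. SIRT5 was called whichever library was left out, with a highest FDR of 0.0304. Without HG replicate 3 or without LG replicate 1, SIRT5 was the only sirtuin called, while SIRT2 stood at -0.49 and SIRT3 at 0.58 without HG replicate 3, and SIRT1 at -0.53 without LG replicate 1. Over all genes the calls fell from 3813 to 2076 and 1933 in these fits. Without LG replicate 2, which had the highest SIRT1 and the lowest SIRT3, SIRT4 and SIRT5 of its group, SIRT2 and SIRT5 were called and the log2 fold change of SIRT1 was -0.30 (FDR 0.173). Without HG replicate 2, SIRT1 (FDR 0.111) and SIRT3 (FDR 0.0544) lost the call, and without HG replicate 1, SIRT7 did (FDR 0.0909). SIRT4 passed without LG replicate 3 (FDR 0.0442). With library size only, SIRT1 (FDR 0.0759) and SIRT7 (FDR 0.0703) did not pass and SIRT4 did (FDR 0.0442), the median of all genes being shifted from 0.01 to 0.11 and the higher genes making up 62.6% of the calls in place of 48.6%. MAFG, whose exons overlap SIRT7 on the same strand, fell in HG by 1.07 on the log2 scale (FDR 0.000132), from a mean of 215 to 101 CPM, and its part in the SIRT7 counts was not tested. NFKBIB beside SIRT2 also fell, by 0.76 (FDR 0.00200).

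In VPA-treated cells the glucose difference was measured again on libraries that do not enter HG against LG. Here 5 of 7 sirtuins were called between HGV and LGV, 3 higher and 2 lower, beside 40.7% of 16208 tested genes (21.2% higher and 19.5% lower). SIRT3, SIRT4 and SIRT5 rose, by 0.74 (standard error 0.14, FDR 0.000386), 0.67 (standard error 0.18, FDR 0.00684) and 0.96 (standard error 0.17, FDR 0.000251) on the log2 scale. SIRT1 fell by 0.48 (standard error 0.14, FDR 0.00918) and SIRT6 fell by 0.42 (standard error 0.14, FDR 0.0240). SIRT2 with -0.19 (95% interval -0.44 to 0.07, FDR 0.241) and SIRT7 with -0.23 (95% interval -0.49 to 0.02, FDR 0.135) did not pass. The SIRT5 libraries had 10.2 to 16.3 CPM in LGV and 22.4 to 25.8 CPM in HGV, and those of SIRT3 had 9.78 to 11.2 CPM and 17.2 to 18.3 CPM. All 7 sirtuins had the same sign here as in HG against LG, as did 80.0% of the 15271 genes tested in both comparisons. SIRT3 and SIRT5 were called under each of the 13 alternatives. The FDR of SIRT1 reached 0.0501 without LGV replicate 2 and 0.0585 without LGV replicate 3, and that of SIRT4 reached 0.0527 without LGV replicate 3. The FDR of SIRT6 was 0.162 without LGV replicate 3, 0.0832 without LGV replicate 2, 0.0859 without HGV replicate 1, 0.0597 without HGV replicate 3 and 0.0719 with library size only. SIRT7 passed without LGV replicate 1 (FDR 0.0400). In all, 2 sirtuins were called without LGV replicate 3 and 3 without LGV replicate 2. The antisense RNA over SIRT5 exons rose by 0.98 (FDR 0.0242) and ANKRD24 beside SIRT6 by 1.36 (FDR 0.00116). MAFG, which overlaps SIRT7, fell by 1.12 (FDR 1.41e-05) and NFKBIB beside SIRT2 by 0.55 (FDR 0.00246). RIC8A and PSMD13 near SIRT3 did not pass (FDR 0.524 and 0.564). The part of these genes in the sirtuin counts was not tested.

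**Figure D3:**
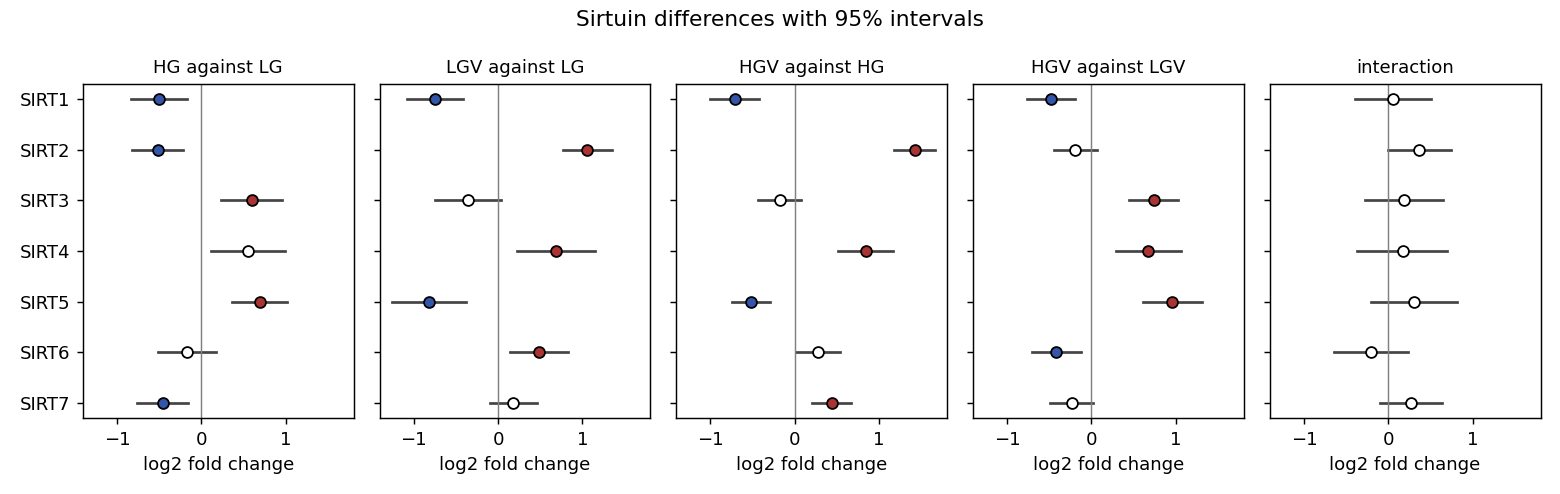
Log2 fold change of each sirtuin in the 4 comparisons and in the interaction of glucose and VPA, with 95% intervals as lines. Filled points passed an FDR of 0.05 (red higher, blue lower) and open points did not, and none of the 7 points of the interaction is filled.

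Whether the response to VPA differed between the media was asked of all 12 libraries with an interaction term. None of the 7 sirtuins passed with edgeR, none had an unadjusted p under 0.05, and none passed with DESeq2. Among all 16389 genes 0.0427% were called, which is 7 genes, and DESeq2 called 162. Without LG replicate 2 edgeR called 217 genes, without LG replicate 3 it called 67 and without LGV replicate 1 it called 21, while leaving out any other library left 1 or 2. The estimate for SIRT2 was a rise that was larger in HG medium by 0.37 on the log2 scale (95% interval 0.00 to 0.75, FDR 0.443 with edgeR). The intervals left room for differences of some size, from -0.20 to 0.82 for SIRT5, from -0.39 to 0.51 for SIRT1 and from -0.10 to 0.64 for SIRT7. A response that passed in a single medium, as for SIRT6 and SIRT7, was therefore not shown to differ between the media.

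Ratios of reads between sirtuins within a library do not depend on the scaling between libraries. The ratio of SIRT2 to SIRT1 reads was 1.01, 0.729 and 0.814 in LG and 0.716, 0.961 and 0.837 in HG. It was 3.14, 2.84 and 2.91 in LGV and 3.14, 4.45 and 3.35 in HGV, so that no treated library overlapped an untreated one. The ratio of SIRT5 to SIRT1 reads was 0.501, 0.308 and 0.692 in LG and 0.721, 0.348 and 0.355 in LGV. It was 0.941, 1.24 and 1.11 in HG and 1.06, 1.35 and 1.30 in HGV, so that it separated the media and not the treatment. The ratio of SIRT3 to SIRT1 reads was 0.182 to 0.414 in LG and 0.488 to 0.766 in HG, and 0.334 to 0.458 in LGV and 0.839 to 1.02 in HGV. These ratios were chosen after the values were seen, and their genes differ in length, so only their differences between groups can be read.

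**Figure D4:**
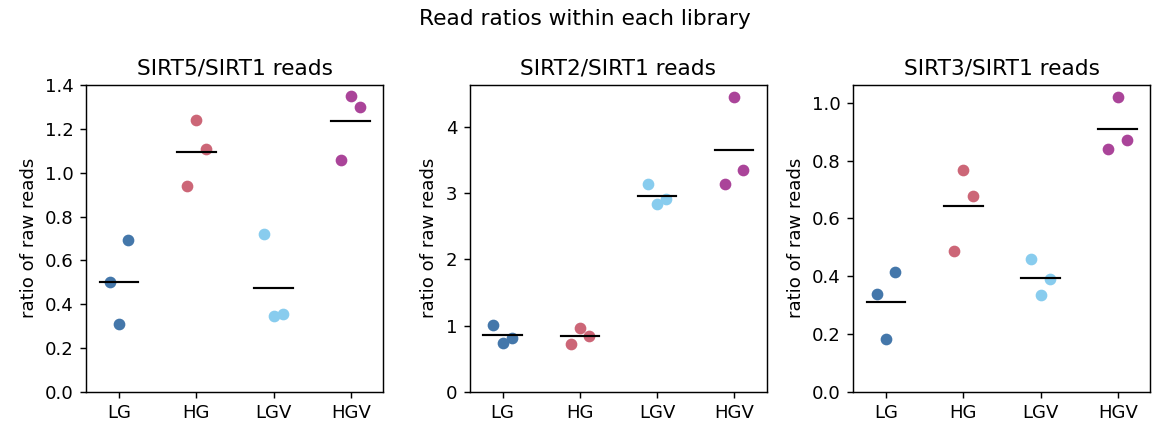
Ratio of raw reads between sirtuins in each of the 12 libraries, with points for libraries and lines for the mean of 3. The ratio of SIRT2 to SIRT1 was at least 2.84 in every VPA library and at most 1.01 in every untreated library, while the ratio of SIRT5 to SIRT1 divided HG and HGV from LG and LGV.

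The sequence before a RefSeq start is shown for SIRT1, SIRT4 and SIRT5, which changed with VPA in both media. RefSeq promoter entries (GRCh38.p14) matched 6 of the 7 sirtuins, all but SIRT7, and each window of 250 bases before a start was found once in GRCh37, whose coordinates are given. Capitals mark motifs on either strand. These are the E-box CACGTG, the GC box GGGCGG, the cAMP response element TGACGTCA, the core of the nuclear respiratory factor 1 motif CGCATGCG, the ETS site CCGGAAG and the CCAAT box. The SIRT1 window is chr10:69644164-69644413 on the plus strand. The SIRT4 window, before the more upstream of 2 starts, is chr12:120729742-120729991 on the plus strand. That window ends far upstream of the SIRT4 gene start at 120740119 given above. The window before the other SIRT4 start, chr12:120739874-120740123, reaches the gene start. The SIRT5 stretch, the 222 bases of its window outside annotated UTRs, is chr6:13574539-13574760 on the plus strand. It lies before the more upstream of 2 RefSeq starts but inside the annotated SIRT5 gene, which begins at 13574459.
SIRT1: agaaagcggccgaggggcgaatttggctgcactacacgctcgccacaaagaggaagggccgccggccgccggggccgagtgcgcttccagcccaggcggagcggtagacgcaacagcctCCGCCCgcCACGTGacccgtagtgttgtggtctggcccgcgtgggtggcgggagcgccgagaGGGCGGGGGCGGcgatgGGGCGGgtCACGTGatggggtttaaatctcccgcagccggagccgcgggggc
SIRT4: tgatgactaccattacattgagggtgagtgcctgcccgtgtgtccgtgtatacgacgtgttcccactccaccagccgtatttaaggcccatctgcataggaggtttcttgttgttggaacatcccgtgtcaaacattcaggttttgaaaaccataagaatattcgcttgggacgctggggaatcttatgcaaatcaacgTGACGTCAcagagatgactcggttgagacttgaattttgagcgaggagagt
SIRT5: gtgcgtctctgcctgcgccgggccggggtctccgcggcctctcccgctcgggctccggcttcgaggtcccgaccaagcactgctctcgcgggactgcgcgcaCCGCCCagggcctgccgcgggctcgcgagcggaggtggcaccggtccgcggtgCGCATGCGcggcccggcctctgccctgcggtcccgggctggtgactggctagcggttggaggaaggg
SIRT1 held 2 E-boxes, which begin 123 and 44 bases before the start, among 4 GC boxes, a pair of which adjoin each other. E-boxes were in 6.34% and GC boxes in 42.6% of the 35116 promoter windows of this length. The SIRT4 window shown held a cAMP response element 51 bases before its upstream start, a motif of 1.65% of windows. The window of the other SIRT4 start, at the gene start, held none of the 6 motifs. The SIRT5 stretch held a GC box and the nuclear respiratory factor 1 core, which was in 1.73% of windows. The window before the second SIRT5 start, chr6:13574583-13574832, held 2 GC boxes and the same core. A SIRT6 window held the core motif too. The SIRT3 window held an ETS site (8.52% of windows) and the SIRT2 window a CCAAT box (32.0% of windows) at its far end. All but 6 bases of the SIRT2 window are annotated as UTR of SIRT2 or NFKBIB, so it is not shown. A match of letters is a description and no evidence that a factor binds there.

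Sirtuins need NAD+, and of 16 genes of NAD+ synthesis 10 were in the table. With VPA, 6 of these 10 were lower and none higher in LG medium, and 4 were lower and 1 higher in HG medium, with median log2 fold changes of -0.50 and -0.20 beside -0.01 and 0.02 for all genes. Over all tested genes, 19.9% were called lower and 21.7% higher in LG medium, and 20.2% and 25.8% in HG medium, so that 5 of 10 called in HG medium stands near the 46.1% of all genes. With library size only, 2 and 3 of the 10 were lower. QPRT, which makes nicotinate mononucleotide from quinolinate, fell by 1.08 (FDR 1.31e-05) from 168 ± 21.9 to 79.0 ± 6.72 CPM (SD, n = 3) in LG medium and by 1.00 in HG medium. AFMID, the formamidase of the kynurenine route, fell by 0.70 and 0.56, and KYNU by 0.38 and 0.78. HAAO of the same route fell by 0.74 in LG medium and had -0.2 in HG medium (FDR 0.224). NAMPT, the rate-limiting enzyme of NAD+ salvage, had 18.2 ± 2.53 CPM in LG, 21.3 ± 1.19 in LGV, 18.8 ± 2.19 in HG and 19.1 ± 1.94 in HGV (SD, n = 3) and passed in none of the 4 comparisons. None of the 10 genes passed in HG against LG, beside 24.7% of all tested genes, and 1 was higher with library size only. NAMPT was named after its values were seen.

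Of 13 measured genes that use NAD+ or clear nicotinamide, 5 were lower and 2 higher with VPA in LG medium, and 6 were lower and 1 higher in HG medium, beside 41.6% and 46.1% of all genes called in either direction. With library size only, 5 were lower and 4 higher in LG medium. The ADP-ribosyltransferase genes PARP10 and PARP4 led with log2 fold changes of -1.51 and -1.11 in LG medium and -1.60 and -1.37 in HG medium. NADK2, the mitochondrial NAD kinase, fell by 1.06 in LG medium and 0.51 in HG medium, and PARP3 by 1.0 and 0.98. Of 8 regulators of sirtuins, 1 was higher and 2 lower in each medium, which is no larger a share than the 41.6% and 46.1% of all genes. HIC1, a repressor of SIRT1 transcription, rose from 0.909 ± 0.0530 to 6.57 ± 1.77 CPM in LG medium (log2 fold change 2.86, FDR 1.04e-06) and from 0.675 ± 0.0679 to 2.03 ± 0.457 CPM in HG medium (1.57, FDR 0.000366) (SD, n = 3). USP22, which removes ubiquitin from SIRT1, fell by 0.85 and 0.76. RPS19BP1, a binding partner of SIRT1, fell by 0.35 in LG medium and had -0.29 in HG medium (FDR 0.0522). CREB1 fell by 0.46 in HG medium and had -0.05 in LG medium (FDR 0.793).

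Among 21 nuclear and cytosolic substrates, 4 were higher and 7 lower with VPA in LG medium, and 4 higher and 8 lower in HG medium, beside 41.6% and 46.1% of all genes called. TUBA1A, an alpha-tubulin, rose by 1.07 on the log2 scale in LG medium and by 1.65 in HG medium. NR1H4, the bile acid receptor, fell by 1.32 and 1.79, and SREBF1, the regulator of lipid synthesis, by 1.23 and 0.78. Among 14 measured mitochondrial substrates, none was higher and 8 lower in LG medium, and 1 was higher and 7 lower in HG medium. All genes were called lower at 19.9% and 20.2%. With library size only, 1 was higher and 5 lower, and 3 higher and 5 lower. SHMT2, a SIRT5 substrate of serine metabolism, fell by 1.19 and 1.14, and PPIF, the cyclophilin that SIRT3 deacetylates, by 0.76 and 0.70. LONP1, a matrix protease, fell by 0.91 and 0.48, and GLUD1, the glutamate dehydrogenase that SIRT4 inhibits, by 0.65 and 0.63. In HG against LG, 4 of the 14 were higher and 2 lower (24.7% of all genes were called), with SOD2, the manganese superoxide dismutase that SIRT3 deacetylates, at 0.96 and GLUD1 at 0.58, named after their values were seen. Of 10 measured zinc-dependent deacetylases, none passed in HG against LG, or 1 with library size only, beside 24.7% of all genes. With VPA 2 of them were higher and 2 lower in LG medium and 3 higher and 3 lower in HG medium (41.6% and 46.1% of all genes). HDAC1 was among the higher with 0.45 and 0.58, and HDAC5 among the lower with -0.62 and -0.32. HDAC4 was lower in LG medium with -0.46 and had -0.32 in HG medium (FDR 0.0571). HDAC7 with -0.66 and HDAC10 with -0.62 were lower in HG medium. They had -0.25 (FDR 0.189) and 0.14 (FDR 0.65) in LG medium.

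The genes whose profile lay nearest to each sirtuin were taken by the root mean square difference of centred log2 CPM over the 12 libraries, among the 11893 genes whose mean log2 CPM reached 1. Nearest to SIRT1 were PTPRK (0.117), CEBPG (0.131) and ZFR (0.138), against a median of 0.522 over all genes. Nearest to SIRT2 were RGL1 (0.101), B4GALNT1 (0.122) and MPP1 (0.126), against a median of 0.729. SIRT3 lay nearest to LAS1L (0.0980), DQX1 (0.103) and SNRNP35 (0.109), SIRT4 to C2orf44 (0.129) and ADC (0.134) among others, and SIRT5 to RECQL5 (0.0963), SDCBP2-AS1 (0.113) and DHODH (0.114). SIRT6 lay nearest to FLYWCH1 (0.0828), KLC2 (0.0876) and POMT1 (0.0978), and SIRT7 to PRKCD (0.0445), UNC45A (0.0524) and DGKZ (0.0681). No sirtuin was among the nearest 3 of another, and a gene that varies little, as SIRT7 does, has small differences to many genes.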

How the data were processed

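RNA was selected for poly(A) tails and sequenced as single-end reads on an Illumina instrument. The authors trimmed the reads with the FASTX Toolkit, used STAR for alignment to GRCh37 and featureCounts for reads per Ensembl gene at a mapping quality of at least 10, and the deposited counts are raw, without normalization. The table holds no gene with a mean below 10. The test was that of edgeR 4.0.16, run in R 4.3.3 (TMM factors, quasi-likelihood F test, 3 libraries against 3, no block), for genes with a mean of at least 10 in the libraries compared, with Benjamini-Hochberg adjustment over all of them and a threshold of 0.05. CPM was scaled with TMM factors over the 12 libraries, and log2 CPM used a pseudocount of 0.5. The test was checked on simulated counts.

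Comparisons that share a group (such as LGV against LG and HG against LG) share its libraries. Deviations of same-numbered libraries correlated over genes from -0.255 to 0.382, and those of differently numbered libraries from -0.485 to 0.478. In HGV against LGV they ran from 6.5e-05 to 0.253 for same-numbered and from -0.23 to 0.15 for differently numbered libraries. Deviations centred within groups of 3 are tied to each other, so these values cannot exclude pairing. Same-numbered libraries were not treated as pairs in the main test, and a replicate block was 1 of the alternatives. The 7 sirtuins, the gene lists and the rule for named genes were chosen with earlier results of these data known. The genes named besides sirtuins were neighbours within 1000 bases or with overlapping exons, the 3 nearest profiles per sirtuin and up to 3 called genes with the largest change per list and VPA comparison. Some genes that this rule names are not reported here. The alternatives were the size factors and the Wald test of DESeq2 1.42.0, scaling by library size only, no filter, a filter of 1 CPM in at least 3 libraries, the replicate block, 1 fit of the 12 libraries and leaving out each library in turn. List counts under other scalings were added after seeing the data. Positions came from GENCODE annotation on GRCh37.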

Additional observations from a re-analysis of the deposited data

How the results depend on the processing

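Of 490 recomputed values for the sirtuins, 449 kept their direction and their side of the threshold, 31 lost and 7 gained the call, and 3 changed sign. The 3 were estimates of the SIRT1 interaction, which ran from -0.15 to 0.17 when single libraries were left out, with -0.15 without LG replicate 2, -0.07 without HG replicate 2 and -0.05 without LGV replicate 1, none of them called. The sirtuins called when single libraries were left out numbered 1 to 6 in HG against LG, 3 to 5 in LGV against LG and 2 to 6 in HGV against LGV, and 5 in HGV against HG each time. These fits hold fewer samples, and the cause of each lost call was not tested. DESeq2's size factors and Wald test, no filter and the 1 CPM filter each left 5 sirtuins called in the 4 comparisons. SIRT4 passed in HG against LG in 1 fit of the 12 libraries (FDR 0.0314).

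With the replicate block, 4 sirtuins were called in HG against LG, where SIRT7 had an FDR of 0.0532, and 5 in each of the other three comparisons. Over all genes the block moved the calls from 3813 to 3351 in HG against LG, from 6638 to 6971 in LGV against LG, from 7456 to 8229 in HGV against HG and from 6604 to 7308 in HGV against LGV. The interaction gave 7 calls over all genes, 13 with the block, 162 with DESeq2's Wald test, 1 with library size only and 1 to 217 when single libraries were left out. In HG against LG the calls over all genes were 2076 without HG replicate 3 and 1933 without LG replicate 1. SIRT4 rests on the fewest reads, and its differences are the most exposed to counting error.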
